A study of Mus musculus with 11 samples.

Results

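Glycolysis and hypoxia response genes were followed in mouse CD4 T cells that carried wild-type FoxP3, 1 of 2 FoxP3 mutants, or an empty vector. The set named 34 genes of glycolysis, lactate handling and the response to low oxygen, and its members were all probe sets that the platform annotation pairs with exactly 1 symbol of that list. This gave 69 of 45101 probe sets and 31 of 18193 genes. Gpi1, Eno1 and Bnip3l had no such probe set. The rule left out 4 probe sets that carry several symbols with a listed gene among them. The 31 genes had 1 to 5 probe sets each, and 11 of them had 1.

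Naive CD4+ CD25- CD45RB high T cells of BALB/cA mice, taken from spleen and lymph nodes, were stimulated with anti-CD3e, IL-2 and irradiated splenocytes depleted of T cells, infected with a MIGR1-based retrovirus, and sorted as GFP high CD4+ cells on day 7. The groups were R397W FoxP3 (2 arrays), A384T FoxP3 (3 arrays), wild-type FoxP3 (WT, 3 arrays) and the empty MIGR1 vector (mock, 3 arrays), and each array had a number from 1 to 3 in its title. All groups shared the activation, the vector backbone and the GFP sort, FoxP3 came from the retroviral vector rather than from its own locus, and nothing in the labels tells if a group's arrays stem from different cultures or mice. The p-values below therefore reflect variation from array to array, part of which may be technical. Each value is on the log2 scale with the mock median of that probe set as 0, so levels of different genes cannot be compared and the labelled cell type could not be checked by the level of its markers.

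Glycolysis splits glucose into pyruvate, which is either oxidised in mitochondria or reduced to lactate, and activated T cells are known for a high rate of it even where oxygen is present. The hypoxia-inducible factors are dimers of an oxygen-regulated alpha subunit, HIF-1 alpha (Hif1a) or HIF-2 alpha (Epas1), with a constant beta subunit. Prolyl hydroxylases such as Egln1 and Egln3 mark the alpha subunits for degradation when oxygen is sufficient, and HIF-1 raises the transcription of most enzymes of glycolysis by binding a short core, ACGTG or GCGTG, in their promoters. FoxP3 is the forkhead transcription factor of regulatory T cells, whose activated effector counterparts rely more on glycolysis.

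The promoter windows of members described below are shown with this core, to which HIF-1 binds, although not every member window holds it. RefSeq windows of build GRCm38.p6, from 250 bases before to 50 bases after a transcript start, were given for 28 of the 31 genes, and Epas1, Slc2a3 and Ndrg1 had none. Capitals mark ACGTG or GCGTG on either strand, so that CACGT and CACGC are matches on the opposite strand, and CACGTG is counted on both. Hif1a, Aldoa, Aldoc, Pgk1 and Eno2 are shown because the arrays gave calls for them. Ldha is shown because the window below held the most matches of the 6 while its transcript was called in no comparison between groups. Aldoa, Aldoc and Ldha had further windows, and the one with the lowest start coordinate is shown. An Aldoa window not shown held neither core. The Aldoc window not shown held 1 GCGTG and no ACGTG, and the Ldha window not shown held 2 GCGTG and no ACGTG.
Hif1a: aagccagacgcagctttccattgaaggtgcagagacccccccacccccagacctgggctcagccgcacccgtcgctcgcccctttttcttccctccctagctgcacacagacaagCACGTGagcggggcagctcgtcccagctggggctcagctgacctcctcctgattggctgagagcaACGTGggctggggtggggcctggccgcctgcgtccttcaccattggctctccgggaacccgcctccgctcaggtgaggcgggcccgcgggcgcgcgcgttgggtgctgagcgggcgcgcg
Aldoa: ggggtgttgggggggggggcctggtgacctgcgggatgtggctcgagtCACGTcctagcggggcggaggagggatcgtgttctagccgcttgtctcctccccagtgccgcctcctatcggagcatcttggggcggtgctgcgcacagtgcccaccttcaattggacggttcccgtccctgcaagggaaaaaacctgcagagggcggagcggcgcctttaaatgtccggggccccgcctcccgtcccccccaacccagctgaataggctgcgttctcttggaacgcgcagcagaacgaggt
Aldoc: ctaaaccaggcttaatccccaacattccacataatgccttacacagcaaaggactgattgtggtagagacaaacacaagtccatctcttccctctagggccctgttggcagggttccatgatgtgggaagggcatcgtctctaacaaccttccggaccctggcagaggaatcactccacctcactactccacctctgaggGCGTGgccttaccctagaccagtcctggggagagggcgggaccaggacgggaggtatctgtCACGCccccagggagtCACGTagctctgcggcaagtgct
Pgk1: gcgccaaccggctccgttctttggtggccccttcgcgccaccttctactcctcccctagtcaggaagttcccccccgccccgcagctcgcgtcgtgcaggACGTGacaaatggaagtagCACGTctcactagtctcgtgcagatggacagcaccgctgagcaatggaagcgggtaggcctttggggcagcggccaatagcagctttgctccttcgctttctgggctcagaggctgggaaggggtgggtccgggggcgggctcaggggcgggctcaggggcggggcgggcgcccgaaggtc
Eno2: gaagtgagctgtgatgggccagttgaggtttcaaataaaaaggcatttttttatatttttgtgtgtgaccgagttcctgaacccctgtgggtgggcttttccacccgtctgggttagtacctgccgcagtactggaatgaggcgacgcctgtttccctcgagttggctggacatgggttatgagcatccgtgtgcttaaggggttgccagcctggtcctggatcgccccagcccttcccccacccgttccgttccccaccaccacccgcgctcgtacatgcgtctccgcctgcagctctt
Ldha: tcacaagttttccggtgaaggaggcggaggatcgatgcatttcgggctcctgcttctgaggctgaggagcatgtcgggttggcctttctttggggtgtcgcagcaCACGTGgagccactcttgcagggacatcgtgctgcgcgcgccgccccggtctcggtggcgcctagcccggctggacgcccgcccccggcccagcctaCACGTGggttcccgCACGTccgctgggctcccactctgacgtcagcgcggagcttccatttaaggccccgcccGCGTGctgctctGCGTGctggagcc

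The windows are chr12:73907617-73907916 (Hif1a, plus strand), chr7:126799129-126799428 (Aldoa, minus strand), chr11:78322823-78323122 (Aldoc, plus strand), chrX:106186850-106187149 (Pgk1, plus strand), chr6:124769624-124769923 (Eno2, minus strand) and chr7:46845554-46845853 (Ldha, plus strand), each around the 5′ end of an annotated transcript. Counted from the transcript start, the Hif1a matches began at -135, -134 and -70, and the Pgk1 matches at -150 and -131. The Eno2 window held neither core. ACGTG was present in 25 of 40 member windows (62.5%) and in 19.6% of all 32851 windows, and GCGTG in 22 member windows (55%) and 32.4% of all windows. The member windows were also richer in G and C, with a median of 64% and 20.5 CG dinucleotides, against 52.7% and 7 over all windows, and the part of this composition in the counts was not tested.

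The arrays whose title carries the number 1 stood apart in these genes, so results are given over all arrays and within each number. The median of the 69 probe sets was -0.68 on the R397W array numbered 1, -0.68 on A384T, -0.60 on WT and -0.60 on mock. On the arrays numbered 2 it was 0.24 for R397W, -0.56 for A384T, -0.49 for WT and 0.31 for mock. On the arrays numbered 3 it was -0.50 for A384T, -0.40 for WT and 0.00 for mock. The 4 arrays numbered 1 were therefore alike in this median, whereas on the other numbers the R397W and mock arrays were above the A384T and WT arrays. What the number stands for is not in the labels.

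**Figure D1:**
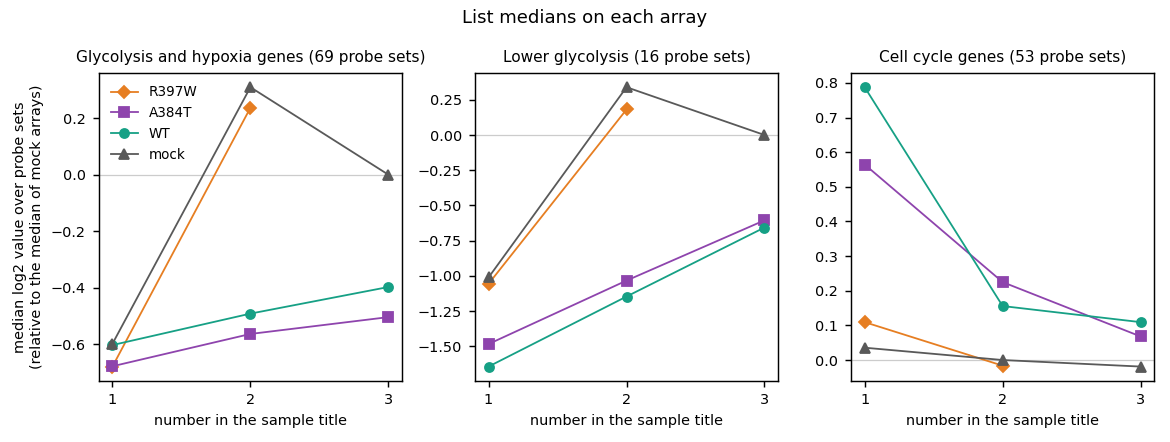
Median log2 value, relative to the mock arrays, over the probe sets of 3 lists on each of the 11 arrays, by the number in the sample title, with 1 marker per array and colours for the 4 groups. In the left panel the arrays numbered 1 of all groups lie between -0.68 and -0.60, and on number 2 the R397W and mock arrays reach 0.24 and 0.31. In the middle panel of lower glycolysis, WT and A384T lie below mock at every number.

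With group in the fit, 18 of the 31 genes differed between the arrays numbered 1 and the others by limma, with p adjusted by Benjamini-Hochberg across 45037 probe sets and a threshold of 0.05. These calls covered 31 of the 69 member probe sets (44.9%), 30 lower on number 1 and 1 higher, beside 14.9% of all probe sets, of which 7.96% were lower and 6.97% higher. Slc2a3, the high-affinity glucose transporter GLUT3, fell by 2.13 ± 0.20 on the log2 scale on the arrays numbered 1 at probe set 1421924_at (SE, adjusted p = 6.91e-05, limma). It was also called lower at 1427770_a_at, but not at 1437052_s_at or 1455898_x_at. At 1437052_s_at, number 1 minus the others was -0.31 in R397W, 0.17 in A384T, -0.01 in WT and -0.28 in mock cells. At 1455898_x_at it was -0.14, 0.40, 0.09 and -0.11 in the same order. Pfkp, a phosphofructokinase, fell by 1.75 ± 0.18 at 1437759_at (adjusted p = 0.000129), and Tpi1, triosephosphate isomerase, by 1.59 ± 0.29 at 1415918_a_at (adjusted p = 0.00426). Ddit4, an inhibitor of mTORC1 induced by stress, was the gene higher on number 1, by 0.56 ± 0.10 (adjusted p = 0.00469). Epas1 was not called, at -0.16 ± 0.16 for 1435436_at (adjusted p = 0.611). In the same contrast, 19 of 23 cell cycle genes were called and all 19 were higher on number 1, and Cd3d, Cd3e and Cd3g of the T cell receptor complex were lower by 0.31 to 0.51. The count of member genes was 10 without mock 1 and 11 without R397W 1 or without R397W 2, and 16 to 20 without any of the other arrays.

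In the comparisons with mock, 2 genes passed the test over all arrays without a term for the number, and both encode HIF alpha subunits. Hif1a rose and Epas1 fell in A384T cells and in WT cells, and no gene was called in R397W cells. For A384T over mock this was 1 member probe set higher and 2 lower of 69 (4.35%), beside 2.17% of all probe sets (1.25% higher, 0.917% lower). For WT over mock it was also 1 higher and 2 lower (4.35%), beside 2.66% of all (1.49% higher, 1.17% lower). For R397W over mock it was 0 of 69 beside 0.0% of all. With the number as a block, 13 genes were called in A384T over mock, with 3 member probe sets higher and 19 lower (31.9%, beside 7.33% of all probe sets, 3.9% higher and 3.43% lower). In WT over mock 13 genes were called as well, with 5 probe sets higher and 19 lower (34.8%, beside 7.63% of all, 3.98% higher and 3.65% lower). Hif1a and Slc2a3 were the genes called higher in each of the 2 comparisons, which share the mock arrays, and Aldoa, Aldoc, Ddit4, Eno2, Epas1, Pdk1, Pfkfb3, Pfkp, Pgk1 and Vegfa were called lower in each, with Egln3 in A384T and Egln1 in WT. The block left the R397W over mock count at 0 of 69, again beside 0.0% of all. These counts depended on single arrays: without the block, leaving out mock 1 gave 4 genes in WT over mock, and leaving out A384T 2, A384T 3, mock 2 or mock 3 gave 1 gene in A384T over mock. With the block, A384T over mock fell short of 13 most without mock 2 (7 genes) and mock 3 (8 genes), and WT over mock without WT 1, WT 3 or mock 2 (8 genes each).

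The median difference over the 69 probe sets against mock was -0.11 in R397W cells, -0.51 in A384T cells and -0.38 in WT cells, against 0.00, -0.01 and -0.01 over all probe sets tested. In A384T over mock 56 of the 69 differences were below 0, and in WT over mock also 56. The arrays of A384T and mock did not overlap at 14 of 69 probe sets (20.3%, beside 14.3% of all), and those of WT and mock at 15 (21.7%, beside 15.1% of all). For A384T and WT this held at 10 (14.5%, beside 7.46% of all). In these sorted bulk samples, fewer cells with a transcript and less of it per cell cannot be told apart.

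**Figure D2:**
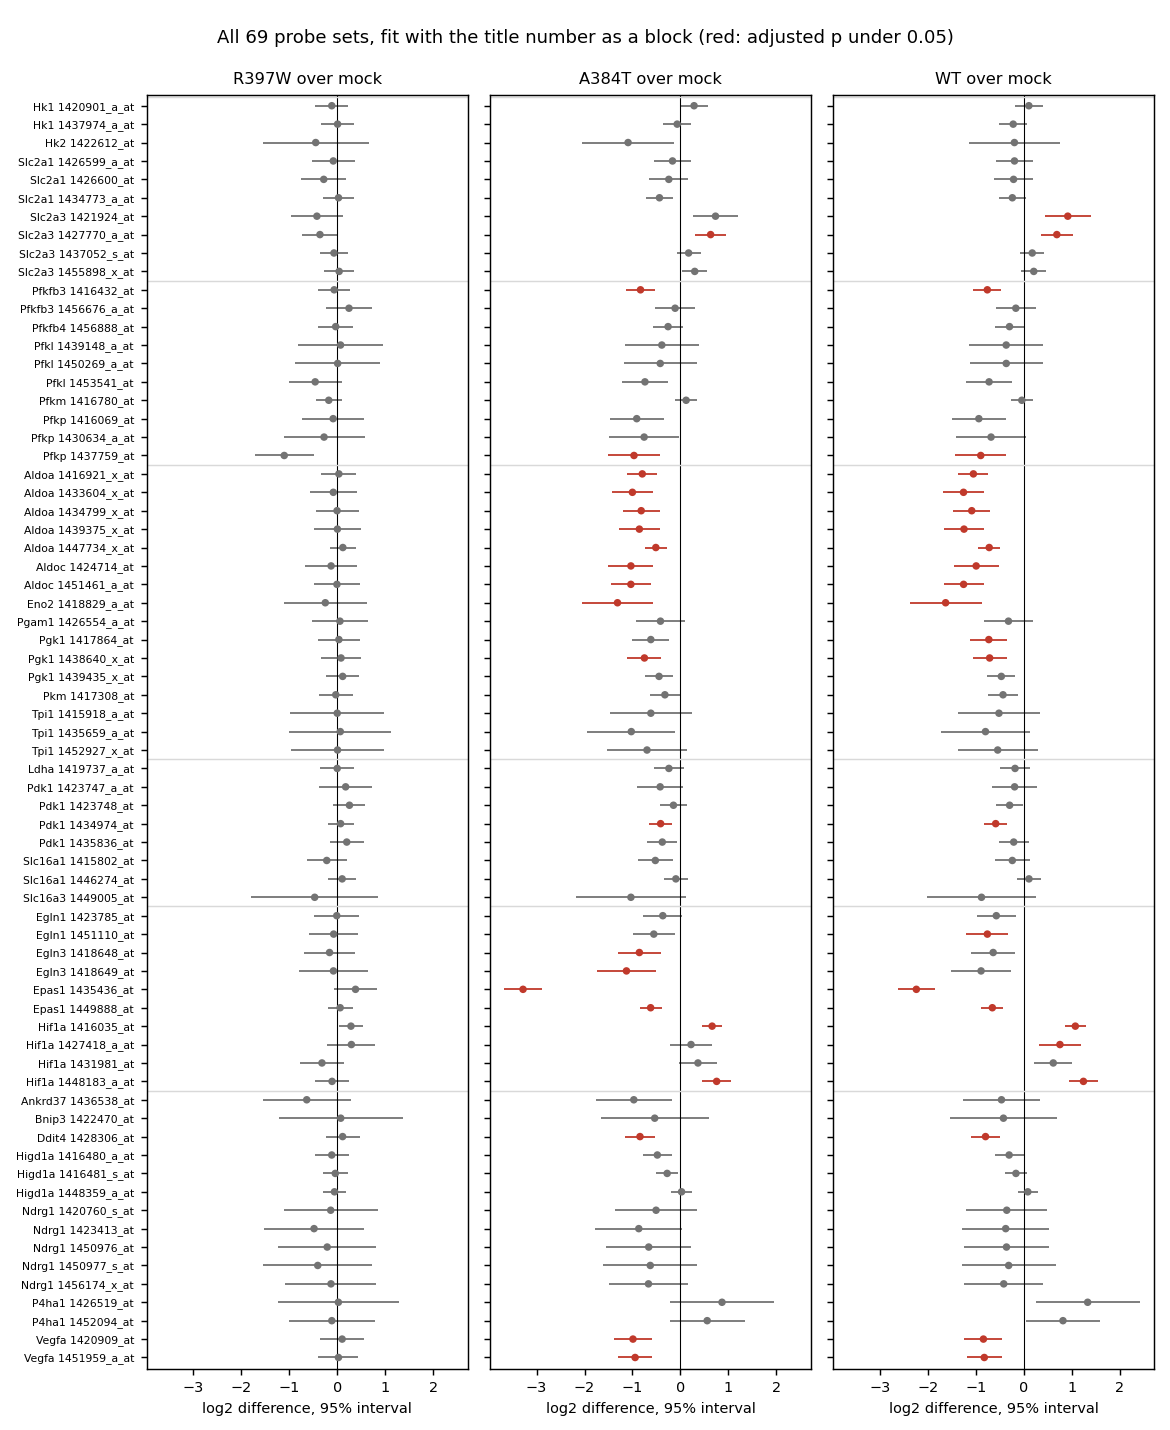
Log2 difference from mock with its 95% interval for all 69 probe sets, from the limma fit with the title number as a block, in R397W (left), A384T (middle) and WT cells (right), with genes grouped by role and red for an adjusted p under 0.05. In the A384T panel 22 probe sets are red, in the WT panel 24 and in the R397W panel 0, and Epas1 1435436_at lies farthest to the left at -3.28 in A384T cells.

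Epas1 gave the largest difference of the set in both comparisons. Probe set 1435436_at read 0.43 and 0.17 on the R397W arrays, -3.65, -3.17 and -2.93 on the A384T arrays, -2.43, -2.44 and -1.76 on the WT arrays, and 0.13, 0.00 and -0.04 on the mock arrays. All A384T values lay below all WT values, and the R397W values lay above all mock values. Epas1 was 9.72-fold lower in A384T than in mock cells (log2 difference -3.28 ± 0.21, SE, adjusted p = 7.56e-05, limma) and 4.72-fold lower in WT than in mock cells (-2.24 ± 0.21, adjusted p = 0.000457). The gap between A384T and WT, -1.04 with a 95% interval from -1.52 to -0.57, missed the threshold without the block (adjusted p = 0.219) and passed it with the block (-1.04 ± 0.18, adjusted p = 0.0292), where it was the 1 called of 69 member probe sets, beside 0.515% of all called and 0.269% called lower. Without the block, no member was called in A384T over WT, where 0.102% of all probe sets were called and 3 members had an unadjusted p under 0.05. The call with the block held in 4 of the 11 fits that leave out 1 array each, and its highest adjusted p among them was 0.189.

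The second Epas1 probe set, 1449888_at, changed less. It read 0.12 and -0.02 on the R397W arrays, -0.67, -0.74 and -0.43 on the A384T arrays, -0.49, -0.76 and -0.69 on the WT arrays, and 0.07, -0.06 and 0.00 on the mock arrays. The A384T and WT arrays overlapped each other and lay below all mock arrays. The difference from mock was -0.62 ± 0.11 in A384T cells (adjusted p = 0.0185, limma) and -0.65 ± 0.11 in WT cells (adjusted p = 0.0124). Without the block, the A384T call was lost when A384T 1, A384T 2, mock 1 or mock 3 was left out (highest adjusted p = 0.0802) and the WT call when WT 2 or mock 1 was left out (highest adjusted p = 0.0593). With the block both held in all 11 fits that leave out 1 array.

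Hif1a differed from mock in the opposite direction. Probe set 1416035_at read 0.18 and 0.27 on the R397W arrays, 0.43, 0.75 and 0.84 on the A384T arrays, 1.01, 0.98 and 1.28 on the WT arrays, and -0.08, 0.00 and 0.13 on the mock arrays. The 4 groups did not overlap, in the order WT, A384T, R397W, mock. Hif1a rose by 0.66 ± 0.13 in A384T cells (1.58-fold, adjusted p = 0.028, limma) and by 1.08 ± 0.13 in WT cells (2.11-fold, adjusted p = 0.0016) over mock. The neighbours in that order were not called apart: A384T minus WT was -0.42 (95% interval -0.70 to -0.13, adjusted p = 0.768), R397W minus A384T was -0.45 (-0.77 to -0.13, adjusted p = 0.234) and R397W minus mock was 0.21 (-0.11 to 0.53, adjusted p = 1), and none of these passed with the block. Without the block the A384T call was lost when A384T 2, A384T 3 or any of the 3 mock arrays was left out, with values from 0.58 to 0.78 over the 11 fits and a highest adjusted p of 0.109, and with the block it held in all 11.

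The other Hif1a probe sets varied. At 1448183_a_at the values were -0.74 and 0.29 in R397W, 0.32, 0.94 and 0.95 in A384T, 0.88, 1.55 and 1.25 in WT, and -0.42, 0.00 and 0.37 in mock cells, so the number 1 array was the lowest of each group. With the block this probe set was higher than mock by 0.75 ± 0.14 in A384T (adjusted p = 0.00795, limma; 0.354 without the block) and by 1.24 ± 0.14 in WT cells (adjusted p = 0.000327; 0.0685 without the block). At 1427418_a_at the WT difference was 0.75 ± 0.20 (adjusted p = 0.0416 with the block, 0.0883 without) and the A384T difference 0.22 ± 0.20 (adjusted p = 0.64 with the block). Probe set 1431981_at was called against mock in neither comparison.

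**Figure D3:**
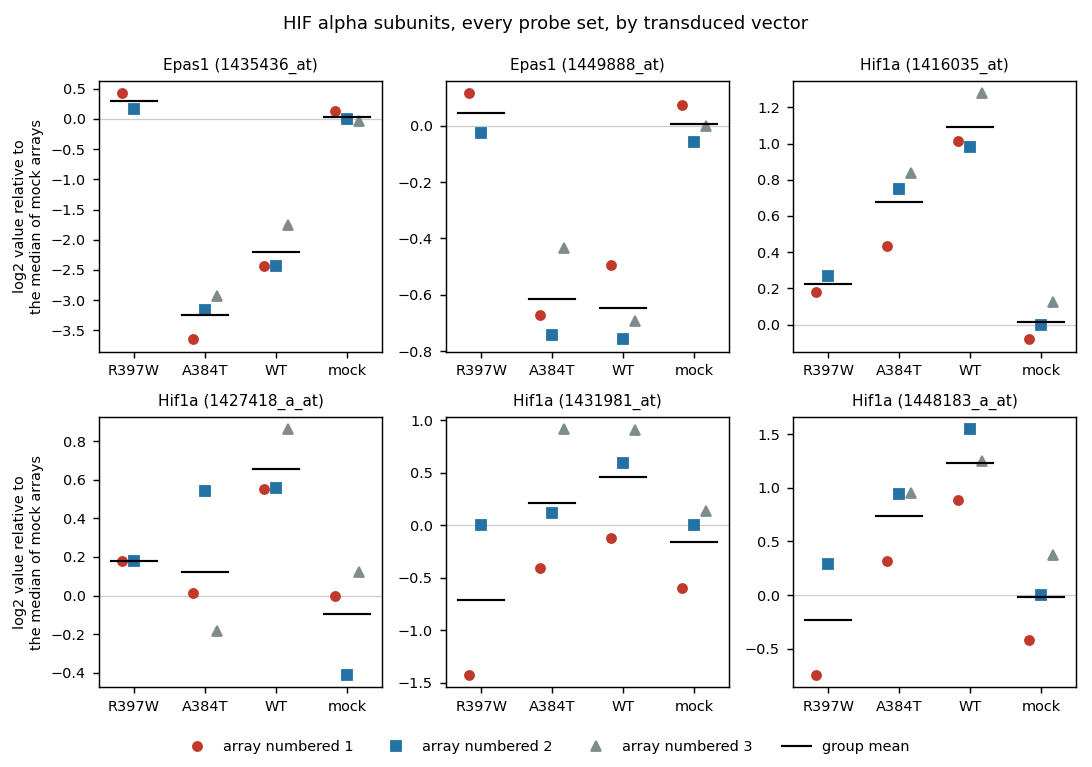
Log2 value relative to the mock arrays on each array for both Epas1 and all 4 Hif1a probe sets, with groups from R397W to mock along the horizontal axis, markers for the title number and a bar for the group mean. At Epas1 1435436_at the A384T arrays lie between -3.65 and -2.93 and the WT arrays between -2.44 and -1.76, and at Hif1a 1416035_at the WT arrays lie between 0.98 and 1.28, above all others.

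Over all arrays, the prolyl hydroxylases that act on these subunits were called against mock with the block and not without it. Egln3, whose transcript is itself known to be induced by HIF, read -0.36 and 0.39 in R397W, -0.64, -1.19 and -1.60 in A384T, -0.79, -0.80 and -1.13 in WT, and -0.66, 0.61 and 0.00 in mock cells at 1418649_at. A384T 2 and 3 were the low arrays, and the A384T array numbered 1 lay beside the mock array of that number. Egln3 was lower in A384T cells by 1.13 ± 0.28 with the block (log2 difference -1.13, adjusted p = 0.036, limma; 0.154 without), and in WT cells the difference was -0.89 (adjusted p = 0.0933 with the block). Egln1, the main oxygen sensor among these enzymes, gave -0.76 ± 0.20 in WT cells at 1451110_at (adjusted p = 0.0438 with the block, 0.59 without) and -0.56 ± 0.20 in A384T cells (adjusted p = 0.143 with the block). The calls for Egln1 and for Egln3 1418649_at each held in 3 of 11 fits that leave out 1 array. The second Egln3 probe set, 1418648_at, was also called in A384T cells with the block, at -0.86 (adjusted p = 0.0297, limma). That call held in 7 of the 11 fits. Without the 4 arrays numbered 1, and without a block, Egln3 1418649_at was called in A384T cells at -1.70 (adjusted p = 0.0403, limma).

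Lower glycolysis had the most calls by number with the block, and was also the group of members with the most probe sets, 16, of which 5 belong to Aldoa. With the block 4 of its 7 measured genes were called, through 9 of 16 probe sets in A384T and 10 of 16 in WT cells, all lower than mock. Over all probe sets, 3.43% and 3.65% were called lower in these comparisons. None of the 16 was called without the block. All 16 differences were below 0 in both comparisons, with a median of -0.77 in A384T and -0.76 in WT cells. Aldoa is the aldolase of muscle and most growing cells, and its 5 probe sets are of a class whose probes can also match other sequences. Probe set 1433604_x_at read -1.68 and 0.08 on the R397W arrays, -2.19, -1.23 and -0.86 on the A384T arrays, -2.42, -1.72 and -0.90 on the WT arrays, and -1.43, 0.16 and 0.00 on the mock arrays. Each array numbered 1 was the lowest of its group, and at each number the A384T and WT arrays were below mock. With the block, Aldoa differed from mock by -1.002 ± 0.19 in A384T (adjusted p = 0.00996, limma; 0.614 without the block) and by -1.25 ± 0.19 in WT cells (2.39-fold lower, adjusted p = 0.00252; 0.474 without), and all 5 of its probe sets were called in both comparisons, by -1.002 to -0.51 in A384T and -1.25 to -0.72 in WT cells.

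Aldoc, the aldolase known best from brain, behaved alike at both probe sets. At 1451461_a_at it read -0.84 and 0.06 in R397W, -1.48, -1.34 and -0.95 in A384T, -1.66, -1.75 and -1.02 in WT, and -0.79, 0.12 and 0.00 in mock cells. No A384T or WT array overlapped the mock arrays. The difference from mock was -1.03 ± 0.19 in A384T (2.05-fold lower, adjusted p = 0.00717 with the block, 0.158 without, limma) and -1.25 ± 0.19 in WT cells (2.38-fold lower, adjusted p = 0.00215 with the block, 0.0706 without). Without the 4 arrays numbered 1 and without a block, the other Aldoc probe set, 1424714_at, was called at -1.37 in A384T (adjusted p = 0.0112) and -1.28 in WT cells (adjusted p = 0.0101).

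Eno2, the neuronal enolase, showed the largest difference in this group, -1.31 ± 0.34 in A384T (adjusted p = 0.0414 with the block, 0.286 without, limma) and -1.63 ± 0.34 in WT cells (3.09-fold lower, adjusted p = 0.0138 with the block, 0.146 without). The A384T call held in 4 of 11 block fits that leave out 1 array (-1.66 to -0.86, highest adjusted p 0.152), and the WT call in 9, being lost without WT 2 or WT 3. It read -1.12 and 0.36 in R397W, -1.49, -1.47 and -1.08 in A384T, -1.81, -1.81 and -1.37 in WT, and -1.08, 0.98 and 0.00 in mock cells. The WT arrays lay below all mock arrays, and A384T 3 equalled the lowest mock array at this precision. Pgk1, the first ATP-yielding kinase of the pathway, was lower at 1438640_x_at by 0.75 ± 0.16 in A384T and by 0.71 ± 0.16 in WT cells (log2 differences -0.75 and -0.71, adjusted p = 0.0166 and 0.0209 with the block, 0.342 and 0.389 without). The enzymes Pgam1, Pkm and Tpi1 were not called against mock. Tpi1 1435659_a_at read -1.91 and 0.57 in R397W, -1.72, -1.54 and -1.37 in A384T, -1.71, -1.54 and -0.69 in WT, and -1.92, 0.37 and 0.00 in mock cells. On number 1 the A384T and WT arrays were above mock, and on numbers 2 and 3 below it.

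**Figure D4:**
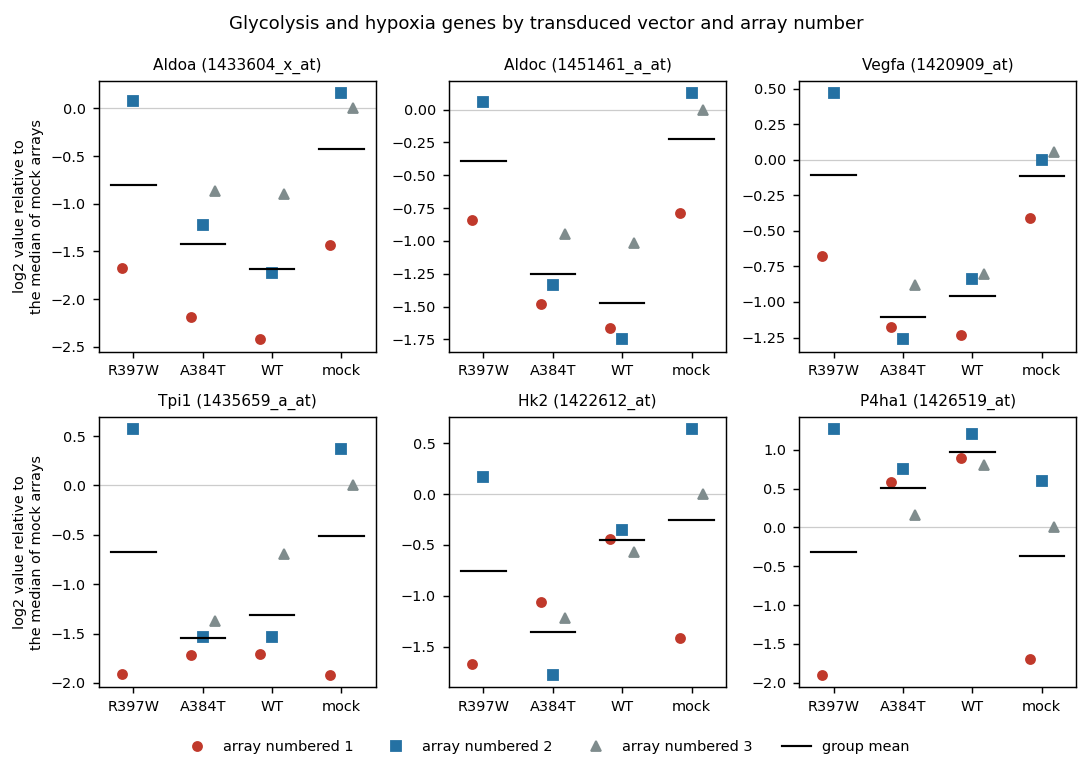
Log2 value relative to the mock arrays on each array for Aldoa, Aldoc, Vegfa, Tpi1, Hk2 and P4ha1, 1 probe set each, with markers for the title number and a bar for the group mean. Aldoa, Aldoc and Vegfa are below mock at each number in A384T and WT cells, whereas for Tpi1 the mock array numbered 1 is the lowest of all at -1.92 and for Hk2 it lies below the A384T and WT arrays of that number.

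Among the phosphofructokinases and the enzymes that make their activator, 2 of 5 genes were called with the block, both lower, in A384T and in WT cells, and none without it. Pfkfb3, which makes the activator fructose 2,6-bisphosphate, read -0.72 and 0.23 in R397W, -1.51, -0.45 and -0.79 in A384T, -1.33, -0.74 and -0.45 in WT, and -0.45, 0.20 and 0.00 in mock cells at 1416432_at. The number 1 array was lowest in every group. With the block, Pfkfb3 differed from mock by -0.83 ± 0.13 in A384T (adjusted p = 0.00337, limma; 0.359 without) and by -0.76 ± 0.13 in WT cells (adjusted p = 0.00516; 0.439 without), and both calls held in all 11 fits that leave out 1 array. Its second probe set, 1456676_a_at, gave -0.11 and -0.16 and was not called. Pfkp was called at 1 of 3 probe sets, 1437759_at, by -0.97 ± 0.24 in A384T (adjusted p = 0.0353 with the block) and -0.90 ± 0.24 in WT cells (adjusted p = 0.0484 with the block), and these held in 4 and 3 of the 11 fits. Pfkl, Pfkm and Pfkfb4 were not called. At Pfkl the 3 probe sets disagreed on R397W 1 and mock 1, where 1439148_a_at read -1.70 and -1.85, and 1453541_at read -0.11 and 0.12. The lowest values of 1453541_at were -1.87 on A384T 3, -2.28 on WT 3 and -1.62 on mock 3.

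Of the 4 genes for glucose uptake and its first step, Slc2a3 was called, higher than mock. At 1427770_a_at it read -1.40 and 0.42 in R397W, -0.13, 1.27 and 0.61 in A384T, -0.25, 1.11 and 1.08 in WT, and -0.73, 0.60 and 0.00 in mock cells. Each A384T and WT array was above the mock array of its number, although the groups overlapped. With the block, Slc2a3 was higher by 0.63 ± 0.15 in A384T (adjusted p = 0.0286, limma; 0.792 without) and by 0.69 ± 0.15 in WT cells (adjusted p = 0.0171; 0.786 without), and these held in 6 and 7 of 11 fits that leave out 1 array. Probe set 1421924_at gave 0.92 ± 0.21 in WT cells (adjusted p = 0.0251 with the block) and 0.73 ± 0.21 in A384T cells (adjusted p = 0.0714), and the other 2 of its 4 probe sets gave 0.17 to 0.30.

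Slc2a1, the main glucose transporter GLUT1 of activated T cells, was not called at any of 3 probe sets. Its differences from mock were -0.44 to -0.17 in A384T and -0.24 to -0.19 in WT cells, with adjusted p from 0.0678 to 0.706 with the block in A384T. Hk2, the inducible hexokinase, read -1.67 and 0.16 in R397W, -1.06, -1.78 and -1.22 in A384T, -0.44, -0.35 and -0.57 in WT, and -1.42, 0.64 and 0.00 in mock cells. The A384T arrays were all below the WT arrays, and the mock arrays overlapped both groups. The difference from mock was -1.09 ± 0.43 in A384T (adjusted p = 0.191 with the block, limma) and -0.19 ± 0.43 in WT cells (adjusted p = 0.893), and A384T minus WT was -0.90 (95% interval -1.85 to 0.06, adjusted p = 0.67 with the block). Hk1 was not called.

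Among the genes for lactate and pyruvate fate, 1 of 4 was called. Pdk1, the kinase that shuts pyruvate out of mitochondrial oxidation, was lower at 1434974_at by 0.41 ± 0.11 in A384T and by 0.58 ± 0.11 in WT cells (log2 differences -0.41 and -0.58, adjusted p = 0.0417 and 0.0067 with the block, limma; 0.547 and 0.298 without), and at none of its other 3 probe sets. The A384T call held in 1 of 11 fits that leave out 1 array and the WT call in 10. Ldha, which reduces pyruvate to lactate, read -0.39 and 0.30 in R397W, -0.33, -0.27 and -0.17 in A384T, -0.34, -0.11 and -0.15 in WT, and -0.42, 0.37 and 0.00 in mock cells. All A384T and WT values lay inside the range of the mock arrays. Its difference from mock was -0.24 (95% interval -0.55 to 0.07) in A384T and -0.18 (-0.49 to 0.13) in WT cells with the block. The lactate transporters Slc16a1 and Slc16a3 were not called.

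Of the 7 hypoxia targets outside glycolysis, Vegfa and Ddit4 were called with the block, both lower than mock. Vegfa, the vascular growth factor, read -0.68 and 0.47 in R397W, -1.17, -1.26 and -0.88 in A384T, -1.23, -0.84 and -0.80 in WT, and -0.41, 0.00 and 0.06 in mock cells at 1420909_at. All A384T and WT arrays were below all mock arrays. With the block, Vegfa differed from mock by -0.99 ± 0.18 in A384T (adjusted p = 0.00695, limma; 0.107 without) and by -0.84 ± 0.18 in WT cells (adjusted p = 0.0158; 0.179 without), and its second probe set, 1451959_a_at, by -0.94 and -0.82. The WT call at 1420909_at held in 5 of 11 fits that leave out 1 array. Ddit4 read 0.35 and 0.21 in R397W, -0.37, -1.07 and -0.90 in A384T, -0.24, -1.08 and -0.88 in WT, and 0.48, 0.00 and -0.29 in mock cells. Here the number 1 array was the highest of each group. With the block Ddit4 was lower by 0.84 ± 0.14 in A384T (log2 difference -0.84, adjusted p = 0.00393; 0.178 without) and by 0.80 ± 0.14 in WT cells (-0.80, adjusted p = 0.00497; 0.208 without), and all 11 fits that leave out 1 array kept both calls.

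The other hypoxia targets were not called against mock, and several had opposite signs on number 1. P4ha1, a collagen prolyl 4-hydroxylase, read -1.90 and 1.27 in R397W, 0.59, 0.76 and 0.16 in A384T, 0.89, 1.21 and 0.81 in WT, and -1.69, 0.60 and 0.00 in mock cells at 1426519_at. The WT arrays were above all mock arrays, but the gap was widest on number 1. The difference from mock was 0.87 ± 0.49 in A384T (adjusted p = 0.402 with the block, limma) and 1.33 ± 0.49 in WT cells (adjusted p = 0.157). Ndrg1, Bnip3, Ankrd37 and Higd1a were also not called.

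Within each number, the members' median difference from mock was near 0 on number 1 and below 0 on numbers 2 and 3. On number 1 single genes, averaged over their probe sets, still differed in both directions. P4ha1 was 2.05 in A384T and 2.23 in WT cells there, and Epas1 was -2.26 in A384T and -1.56 in WT cells. In A384T over mock, the median difference of the 69 probe sets was 0.02 on number 1, -0.87 on number 2 and -0.56 on number 3, with 32, 59 and 56 probe sets lower. In WT over mock it was 0.06, -0.94 and -0.44, with 32, 57 and 56 lower. Averaged over its probe sets, a gene was lower than mock at every number in 15 of 31 cases (48.4%) in A384T cells and in 15 in WT cells, beside 18.9% and 23.5% of all 18193 genes. In R397W cells, which have 2 numbers, it was also 15 of 31, beside 25.4% of all genes, and none of these was called. Hif1a and Slc2a3 were higher at every number in A384T cells, and Hif1a, Slc2a3 and P4ha1 in WT cells. Aldoa was -0.57, -1.21 and -0.61 in A384T and -0.92, -1.53 and -0.76 in WT cells on numbers 1, 2 and 3, and Vegfa was -0.75, -1.40 and -0.76 in A384T and -0.81, -0.95 and -0.73 in WT cells. Hk2 instead was 0.36, -2.42 and -1.22 in A384T and 0.97, -0.99 and -0.57 in WT cells, and Ndrg1 and Bnip3 changed sign between number 1 and the others in the same way.

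**Figure D5:**
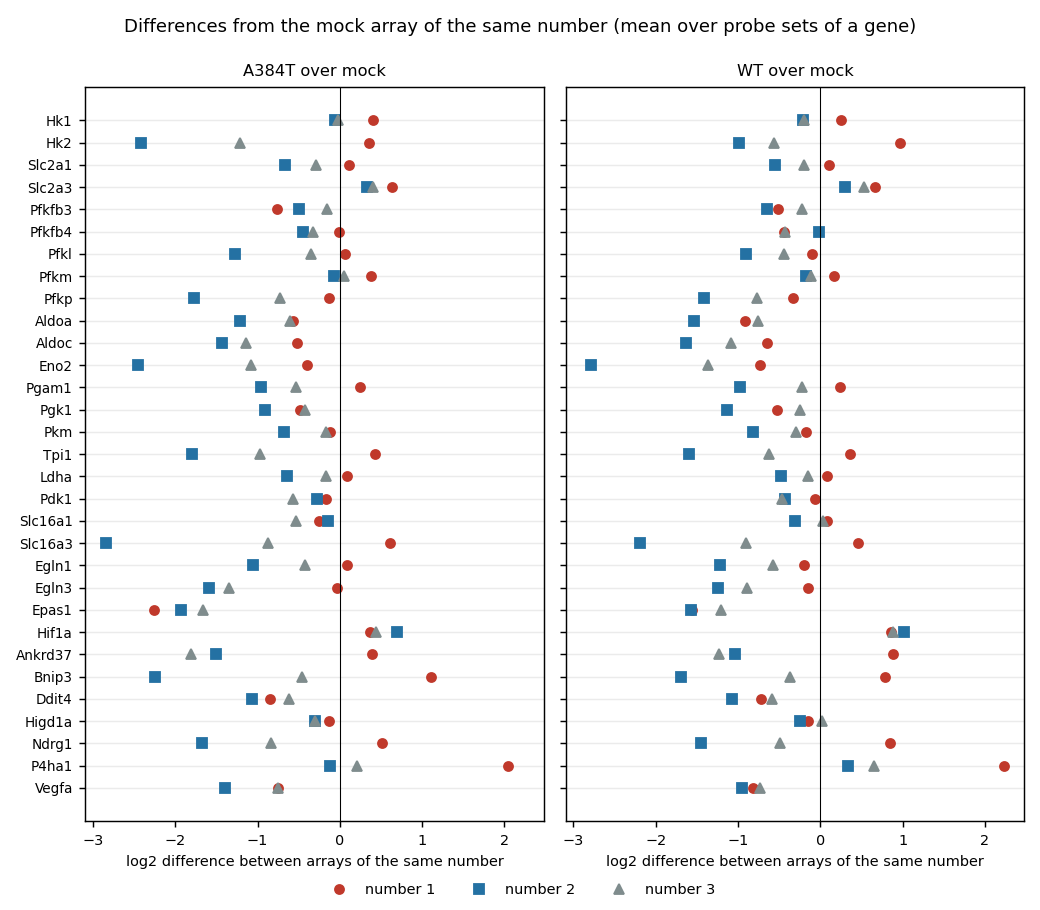
Log2 difference from the mock array of the same title number, averaged over the probe sets of a gene, for the 31 genes in A384T (left) and WT cells (right), with 1 marker per number. In both panels Aldoa, Aldoc, Ddit4, Epas1 and Vegfa are below 0 at all numbers and Hif1a and Slc2a3 above 0 at all, whereas Hk2, Tpi1, Ndrg1, Bnip3, Slc16a3 and Ankrd37 are above 0 on number 1 and below 0 on numbers 2 and 3.

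A fit with a term for number 1 in each group, added after the data were seen, tested whether the differences from mock depend on the number. It left 3 residual degrees of freedom and called 0 of 45037 probe sets by limma in each comparison. At an unadjusted p under 0.05 it had 25 of 69 member probe sets in A384T over mock, beside 1435 of all 45037. It had 18 of 69 in WT over mock, beside 783 of 45037, and 1 of 69 in R397W over mock, beside 706 of 45037. The share was thus larger among the members in A384T and WT over mock, and near that of all probe sets in R397W over mock. The members were chosen with earlier results of these data known, and several probe sets of 1 gene were counted separately. These shares are therefore a description and not a test of the members. Without the 4 arrays numbered 1 and without a block, 5 member genes were called in A384T over mock and 4 in WT over mock. These counts were not set against the share of all probe sets called in that fit, so they say nothing particular to the members. Epas1 remained at -3.03 in A384T (adjusted p = 0.00579) and -2.08 in WT cells (adjusted p = 0.0128), and Hif1a 1416035_at at 1.07 in WT cells (adjusted p = 0.0284).

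R397W cells were set against mock, WT and A384T cells with 2 arrays. Against mock, 0 of 69 probe sets had an unadjusted p under 0.05 without the block and 2 with it, by limma, and a trended robust prior also called 0. The median width of the 95% interval on each side was 0.758 without the block and 0.472 with it, which limits the size of difference that these 2 arrays could show. Pfkp 1437759_at was the largest difference, at -1.10 (95% interval -1.72 to -0.49, adjusted p = 1) with the block, and read -2.77 and -0.86 in R397W, against -1.89, 0.59 and 0.00 in mock cells. The number 1 array was the lowest in both groups. The R397W arrays did not overlap mock at 3 of 69 probe sets (4.35%, beside 11.9% of all), WT at 18 (26.1%, beside 23.3% of all) and A384T at 16 (23.2%, beside 22.7% of all).

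Against WT, R397W cells had 2 genes called without the block, 3 of 69 probe sets (4.35%, beside 1.75% of all, 0.759% higher and 0.99% lower): Epas1 higher, by 2.50 ± 0.24 at 1435436_at (adjusted p = 0.000729, limma) and 0.69 ± 0.13 at 1449888_at (adjusted p = 0.0226), and Hif1a lower, by -0.87 ± 0.14 at 1416035_at (adjusted p = 0.0146). Against A384T, Epas1 was called at both probe sets, 2 of 69 (2.90%, beside 1.47% of all and 0.615% higher), by 3.55 ± 0.24 (11.7-fold higher, adjusted p = 0.000144) and 0.66 ± 0.13 (adjusted p = 0.0317). The Epas1 call at 1435436_at held in all 11 fits that leave out 1 array in both comparisons. The Hif1a call was lost without R397W 1 or R397W 2, with a highest adjusted p of 0.137. Fits without either of these arrays leave 1 R397W array, which is assumed to vary like the other groups.

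With the block, 10 genes were called in R397W over WT, 14 of 69 probe sets higher and 5 lower (27.5%, beside 5.78% of all, 2.71% higher and 3.07% lower). In R397W over A384T 10 genes were called as well, 14 of 69 probe sets higher and 3 lower (24.6%, beside 5.7% of all, 2.64% higher and 3.07% lower). In each of the 2, which share the R397W arrays, Aldoa, Aldoc, Ddit4, Epas1, Pdk1, Pfkfb3, Pgk1 and Vegfa were higher and Hif1a and Slc2a3 lower in R397W cells. Aldoc 1451461_a_at was 1.03 ± 0.22 higher than in A384T cells (adjusted p = 0.0201, limma) and 1.25 ± 0.22 higher than in WT cells (adjusted p = 0.00685). Slc2a3 1427770_a_at was lower by -0.99 ± 0.17 than in A384T cells (adjusted p = 0.0073) and by -1.05 ± 0.17 than in WT cells (adjusted p = 0.00501). With 1 R397W array left, under the same assumption, leaving out R397W 2 gave 3 genes in each comparison, and leaving out R397W 1 gave 6 against WT and 4 against A384T. The counts were also 6 against WT without WT 2, and 6 against A384T without A384T 1. On number 1 the median difference of the 69 probe sets was -0.05 against WT and 0.02 against A384T, and on number 2 it was 0.81 and 0.69.

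Other genes of sugar metabolism and of the hypoxia pathway were taken from 2 lists of 24 and 23 measured genes. Without the block, 2 sugar genes were called higher and 2 lower in A384T over mock, and 1 higher and 3 lower in WT over mock. Of all probe sets, 1.25% were called higher and 0.917% lower in A384T over mock, and 1.49% and 1.17% in WT over mock. These shares count probe sets, whereas the list counts genes. Ldhb, the lactate dehydrogenase subunit known from heart, rose at all 4 probe sets, by 1.45 ± 0.16 in A384T (adjusted p = 0.000961, limma) and by 1.17 ± 0.16 in WT cells (adjusted p = 0.00301) at 1448237_x_at. This probe set read 0.04 and -0.16 in R397W, 1.69, 1.36 and 1.19 in A384T, 1.15, 1.38 and 0.87 in WT, and -0.14, 0.00 and 0.03 in mock cells. The A384T and WT arrays lay above all mock and R397W arrays at every number. Pygl, the liver form of glycogen phosphorylase, was lower, with log2 differences of -2.99 ± 0.36 in A384T (7.95-fold, adjusted p = 0.00175) and -2.31 ± 0.36 in WT cells (4.98-fold, adjusted p = 0.0068). It read -0.70 and 0.52 in R397W, -3.25, -2.89 and -2.85 in A384T, -2.44, -2.76 and -1.76 in WT, and -0.50, 0.48 and 0.00 in mock cells. Arrdc4 was the second sugar gene called higher in A384T cells and Pgd the second called lower, and Bpgm and Slc2a8 were called lower in WT cells.

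In the hypoxia pathway list, 1 gene was called higher and 1 lower in A384T over mock without the block, and 1 higher and 3 lower in WT over mock. The shares of all probe sets called are those given for the sugar list. Bhlhe40, a transcriptional repressor known to be induced by low oxygen, rose by 2.30 ± 0.38 in A384T (4.93-fold, adjusted p = 0.0107, limma) and by 2.47 ± 0.38 in WT cells (5.56-fold, adjusted p = 0.00632). It read -0.63 and 0.35 in R397W, 2.82, 2.77 and 1.49 in A384T, 2.65, 2.75 and 2.19 in WT, and -0.27, 0.44 and 0.00 in mock cells. P4ha2, a collagen prolyl 4-hydroxylase like P4ha1, was lower, with log2 differences of -2.04 ± 0.44 in A384T (adjusted p = 0.0468) and -2.13 ± 0.44 in WT cells (adjusted p = 0.0338). It read -1.10 and 0.23 in R397W, -2.48, -2.10 and -1.79 in A384T, -2.54, -2.46 and -1.64 in WT, and -0.93, 0.67 and 0.00 in mock cells. Cited2 and Stc2 were called lower in WT cells.

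Cell cycle genes also differed from mock in A384T and WT cells, with most calls made only with the block. With the block, 7 of 23 were called higher and 1 lower in A384T over mock, and 12 higher in WT over mock. Of all probe sets, 3.9% were then called higher and 3.43% lower in A384T, and 3.98% higher in WT over mock. Without the block 1 gene was called in each, the replication helicase subunit Mcm5, beside 2.17% and 2.66% of all probe sets. These shares count probe sets, whereas the list counts genes. The list's median on the arrays numbered 1 was 0.11 for R397W, 0.56 for A384T, 0.79 for WT and 0.04 for mock, where the members' median difference from mock was 0.02 in A384T and 0.06 in WT cells. It was -0.02, 0.22, 0.16 and 0.00 in the same order on number 2, and 0.07 for A384T, 0.11 for WT and -0.02 for mock on number 3, where the members were lower than mock. Of 28 marker genes of other cell types, Adgre1 of macrophages was called lower in A384T cells (-1.13 ± 0.19, adjusted p = 0.0131, limma) and Col1a2 of fibroblasts higher in WT cells (2.33 ± 0.51, adjusted p = 0.0416) than in mock cells without the block, and Adgre1 was higher in R397W than in A384T cells (1.19, adjusted p = 0.0241). With the block, Col1a2 was called higher than mock in A384T (1.51, adjusted p = 0.0173) and in WT cells (adjusted p = 0.00132), Pecam1 of endothelial cells higher in WT cells (0.83, adjusted p = 0.00138), and Adgre1 lower in A384T cells (adjusted p = 0.002). R397W cells then had Col1a2 lower than A384T and WT cells, Pecam1 lower than WT and Adgre1 higher than A384T cells, and none of the 28 was called in R397W over mock. Their part in the differences of the glycolysis and hypoxia genes was not tested. The Foxp3 probe set, 1420765_a_at, read -0.19 and -0.39 in R397W, 0.33, 0.10 and 0.30 in A384T, -0.07, 0.00 and 0.11 in WT, and 0.00, -0.34 and 0.26 in mock cells, and since the position of its probes relative to the viral insert is not known, it checks nothing of the labels.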

How the data were processed

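Affymetrix arrays of 11 RNA samples were used (2 R397W, 3 A384T, 3 WT and 3 mock). The deposited table holds log2 values that the authors computed by RMA, according to the submitters' processing notes. Its log base is not stated, and 2 was assumed. At each of 45037 probe sets the median of the 3 mock arrays is exactly 0, so the authors' values are centred on mock and absolute levels are lost, and no filter on dim probe sets was possible. Array medians lay between -0.016 and 0.0019. The table has 45101 probe sets, and 64 control probe sets were left out. No column was left unused.

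Groups were taken from the sample titles. The differences were fitted with limma 3.58.1 (R 4.3.3) on all 45037 probe sets with 1 mean per group, adjusted by Benjamini-Hochberg over all probe sets, and called at an adjusted p under 0.05. A gene was called where at least 1 of its probe sets was called and none in the opposite direction. A second fit added the title number as a block. Correlations of deviations from the group means were 0.107 to 0.718 for 15 same-number pairs of arrays and -0.695 to 0.344 for the other 30. Deviations within a group sum to 0, which by itself pushes correlations between different numbers below 0. The A384T array numbered 2 correlated by 0.107 with mock 2 and by 0.177 with WT 2. Its correlation was 0.283 with mock 3 and 0.276 with WT 3, so pairing of numbers 2 and 3 was not shown for A384T. The numbers were taken to pair the arrays, and the calls with the block rest on this assumption. Full statistics are given for members called with or without the block and always for Slc2a1, Hk2, Pfkfb3, Aldoa, Ldha, Pgk1, Hif1a, Epas1 and Vegfa, and from other lists for up to 4 called genes per comparison with the largest change. The members and gene lists were chosen with earlier results of these data known. Counts used pandas 2.3.3 under Python 3.11.15, and figures matplotlib 3.10.9. The fit was tested on simulated data with independent noise, without and with a number effect that was the same in all groups. Such data cannot test the assumption that the numbers pair the arrays. Alternatives are given in the closing section.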

Additional observations from a re-analysis of the deposited data

How the results depend on the processing

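The counts of member genes called depended on the processing more than their directions did. With the title number as a block, they were 13 (A384T over mock), 13 (WT over mock), 1 (A384T over WT), 10 (R397W over WT) and 10 (R397W over A384T), against 2, 2, 0, 2 and 1 without it, and R397W over mock stayed at 0 in every alternative run. A trended robust prior gave 1, 2, 0, 1 and 1 in the same order, the probe set with the largest SD per gene 1, 1, 0, 1 and 1, and the mean over probe sets per gene 1, 2, 0, 2 and 1. The block with the largest-SD probe set gave 11, 12, 1, 9 and 9. Without the arrays numbered 1, an alternative without a block, they were 5 (A384T over mock), 4 (WT over mock) and 0 (A384T over WT). These were not set against the share of all probe sets called. That fit leaves 1 R397W array, and counts for R397W are not given. Leaving out 1 array gave 1 to 3, 2 to 4, 0 to 0, 1 to 2 and 1 to 2 without the block, 7 to 14, 8 to 14, 0 to 2, 3 to 12 and 3 to 10 with it (6 without WT replicate 2 or R397W replicate 1 in R397W over WT and without A384T replicate 1 in R397W over A384T), and 10 to 20 for number 1 over the other arrays. Centring each array on its own median changed none of the 5 counts. Over all probe sets, the block raised the calls to 3303 (A384T over mock), 3438 (WT over mock), 232, 2603 and 2568, against 976, 1198, 46, 788 and 661, and the trended robust prior lowered them to 329, 446, 22, 255 and 212. In R397W over A384T without the block, leaving out R397W replicate 2 turned Aldoa 1416921_x_at to -0.00986, 1433604_x_at to -0.25 and 1434799_x_at to -0.23, which were 1.23, 1.504 and 1.43 without R397W replicate 1. Slc2a3 1421924_at was 0.15 without R397W replicate 1 and -2.90 without R397W replicate 2. The cause was not tested. These fits leave 1 R397W array, assumed to vary like the other groups. With the block, no fit that leaves out 1 array turned a sign there: the 3 Aldoa probe sets ranged over 0.66 to 0.997, 0.59 to 1.26 and 0.56 to 1.07, and Slc2a3 1421924_at over -1.63 to -0.67. With values centred on mock, signal over background cannot be read, and 2 to 3 arrays per group limit the precision.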
